A study of Mus musculus with 2 samples.

Results

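The starts of 38 protein-coding Hox genes, out of 22367 annotated protein-coding starts, were examined for reads of a LUZP1 precipitation in mouse embryonic stem (ES) cells. They were taken by name, as the annotated Hoxa2 to Hoxa13 (10 genes, chromosome 6), Hoxb1 to Hoxb13 (10 genes, chromosome 11), Hoxc4 to Hoxc13 (9 genes, chromosome 15) and Hoxd1 to Hoxd13 (9 genes, chromosome 2) of mm9. No measured value was part of the rule, though earlier results of these data were known when the genes were chosen. For each gene the start and 500 bp on each side of it were used, and for each cluster the whole span from the first to the last listed gene and 200 kb on each side.

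The study mapped LUZP1, a leucine zipper protein, by chromatin immunoprecipitation and sequencing (ChIP-seq) in E14, a line of the 129P2/OlaHsd strain grown without feeder cells, at passages 25 to 30. The LUZP1 group is 1 library made with rabbit serum against LUZP1, and the control group is 1 mock library, described in the sample labels as lacking an antibody and in the design text as using GST. The series title concerns the ATAC and Mediator coactivators at non-coding RNA genes; ATAC is a histone acetyltransferase complex and Mediator connects transcription factors with RNA polymerase II. E14 is 1 cell line, its genes carry no stated alteration, and the files hold DNA reads alone, so neither stem cell markers nor Hox transcripts could be checked.

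Hox genes encode homeodomain transcription factors that give cells their position along the head-to-tail axis and along the limbs. In mammals they lie in 4 clusters, are all read in one direction within a cluster, and carry numbers for paralog groups; low-numbered genes act first and towards the head, high-numbered genes later and towards the tail. In ES cells the clusters are known as mostly silent chromatin held by Polycomb group proteins, and retinoic acid is known to switch them on as the cells differentiate.

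The LUZP1 library held 4214959 mapped reads and the mock library 2734938, all of 36 bp, or 1.65 and 1.07 reads per kb of known genome sequence. LUZP1 counts were multiplied by 0.649 wherever a ratio to the mock is given. The 95% intervals cover counting error only, since each group had 1 library, and no difference has a replicate check. The LUZP1 to mock ratio of 1000 bp windows rose with GC content genome-wide, from 0.747 at 34 to 36 percent GC to 1.22 at 56 to 58 percent. The commonest distance between reads on opposite strands was 85 bp for LUZP1 and 162 bp for the mock. At distances of 63 to 107 bp 747566 pairs of reads could be joined in LUZP1, and at 37 to 187 bp 834137 in the mock. The ranges differ in width, so these counts are not directly comparable. Where a pair comes from 1 fragment its reads are not separate counts, and the intervals are too narrow.

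Enrichment of LUZP1 over the mock was not detectable at the Hox starts. The 38 windows together held 129 reads from LUZP1 and 72 from the mock, which gave a depth-scaled ratio of 1.16 (0.865 to 1.57). Over all 22367 coding starts, counted in the same way, the ratio was 1.17 (1.15 to 1.18), and the Hox starts stood to the other coding starts as 0.994 to 1 (0.739 to 1.35). GC content moves with this value. The Hox windows had a mean GC content of 56.2%. Averaged over genome windows with the GC content of each Hox window, the expected ratio was 1.23. The observed ratio was 0.945 of that (0.703 to 1.28). The interval of the ratio was above 1 with 1000 bp on each side of the start (1.32, 1.06 to 1.66), with 2000 bp (1.19, 1.02 to 1.40) and around the starts of all coding transcripts (1.39, 1.09 to 1.79). Against GC content these were 1.08 (0.865 to 1.36), 1.0004 (0.853 to 1.18) and 1.11 (0.865 to 1.43). Relative to the other coding starts the wider windows were at 1.16 (0.926 to 1.45) with 1000 bp and 1.07 (0.915 to 1.26) with 2000 bp.

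Single starts held few reads. A Hox start had 1 to 11 LUZP1 reads with a median of 3, and 0 to 5 mock reads with a median of 2; over all coding starts the medians were 3 and 1. A LUZP1 read was missing at 0 of the 38 starts, where it was missing at 14.4% of all coding starts. A mock read was missing at 7 (18.4%), where it was missing at 34.5%. At such depth 8 LUZP1 reads against 0 in the mock were the fewest that could put an interval above 1, and 4 mock reads against 0 the fewest that could put it below. Of the 38 starts, 0 had an interval above 1, where 1.06% of all coding starts did, and 0 had one below 1, where 1.61% did. By the 2-fold rule, with 1 read added to both scaled counts, 8 of 38 starts were higher in LUZP1 (21.1%), where 26.2% of all coding starts were, and 2 of 38 were lower (5.26%), where 13.9% were. The median of that ratio was 1.17 over the Hox starts and 1.15 over all coding starts.

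**Figure D1:**
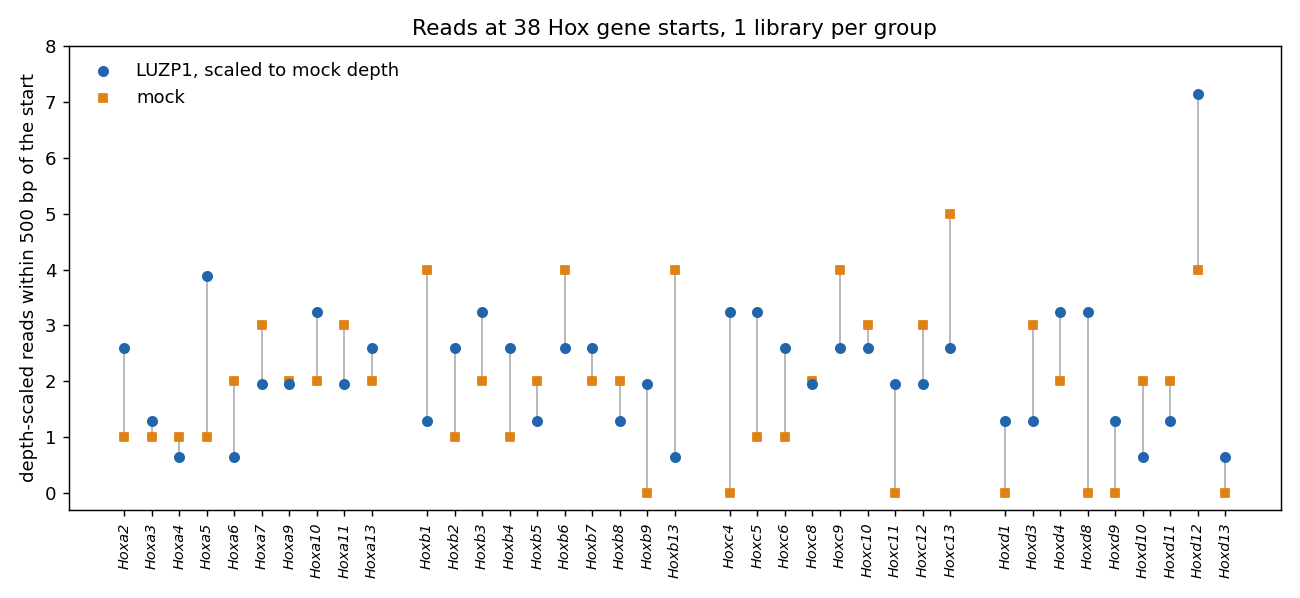
Reads overlapping the 500 bp on each side of each of the 38 Hox starts, in order of paralog number within a cluster; circles are LUZP1 reads scaled to mock depth, squares mock reads, 1 library each, and lines join the values of a gene. LUZP1 lies above the mock at some genes and below it at others in every cluster, and Hoxd12, at 7.14 scaled reads against 4, is the highest point.

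The anterior paralog groups 1 to 3, which act in the hindbrain and pharyngeal arches, came to 21 reads from LUZP1 against 12 from the mock over 7 genes, a ratio of 1.14 (0.534 to 2.53). Hoxb1, needed for the fourth segment of the hindbrain, had 2 reads against 4, a ratio of 0.324 (0.0293 to 2.26). Hoxa2, which sets the identity of the second pharyngeal arch, and Hoxb2 each had 4 and 1. Hoxa3, which acts in thymus and parathyroid formation, had 2 and 1 at its most upstream annotated start (52163338), which lies between Hoxa6 and Hoxa7, and Hoxb3 had 5 and 2. Hoxd1 had 2 and 0 reads, too few in both libraries for a fold. Hoxd3, a gene of the upper neck vertebrae, had 2 and 3 at its most upstream start (74549986), a ratio of 0.433 (0.0361 to 3.78). That start lies before the one of Hoxd4. Over its 6 coding transcript starts, 6006 bp in all, Hoxd3 had 25 and 10 reads, a ratio of 1.62 (0.752 to 3.78). At the starts used, the genes of this class thus differed in direction, by 1 to 3 reads each, and no interval excluded 1.

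The central groups 4 to 8, which pattern neck and chest, had 54 reads from LUZP1 against 24 from the mock over 15 genes, a ratio of 1.46 (0.887 to 2.47). Hoxc4 and Hoxd8, each with 5 reads from LUZP1 and 0 from the mock, had the highest ratios of the members when 1 read was added to both scaled counts (4.24). Against 3 reads, the upper limit of a count of 0, each was at 1.08-fold, below Hoxa5, and the lower interval bound was 0.595. Hoxa5, needed for lung and airway development, had 6 reads against 1, a ratio of 3.89 (0.472 to 179). Hoxc5 had 5 and 1 and Hoxd4 had 5 and 2. Hoxb4, known for a role in blood stem cells, and Hoxc6 each had 4 and 1, and Hoxb7 had 4 and 2. Hoxc8, which acts in the chest vertebrae, had 3 and 2. Hoxb6 had 4 and 4, a ratio of 0.649 (0.121 to 3.48) and among the most reads of any member. Hoxa7 had 3 and 3, Hoxb5 and Hoxb8 each had 2 and 2, Hoxa4 had 1 and 1, and Hoxa6 had 1 and 2, a ratio of 0.324 (0.00550 to 6.23). That start of Hoxa6 is not one of a coding transcript. Around its 1 coding transcript start Hoxa6 had 8 and 4 reads, a ratio of 1.30 (0.348 to 5.89). Counted over its 3 coding transcript starts, Hoxd8 had 8 and 0 reads, with a lower interval bound of 1.11, and it was the single member above 1 under that alternative.

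The posterior groups 9 to 13, which act in the lower trunk, limbs and urogenital tract, had 54 reads from LUZP1 against 36 from the mock over 16 genes, a ratio of 0.973 (0.627 to 1.53). Hoxd12, a limb gene, had the most reads of any member, 11 and 4, a ratio of 1.78 (0.529 to 7.68), and without it the sum over the other starts was at 1.13 (0.829 to 1.54). Within 2000 bp of the Hoxd12 start the counts were 18 and 16. Hoxc13, known for its role in hair, had 4 reads against 5, a ratio of 0.519 (0.103 to 2.41), and Hoxc9, which acts in spinal motor neurons, had 4 and 4, a ratio of 0.649 (0.121 to 3.48). Hoxb13, a tail and prostate gene, had the lowest ratio of the members at 0.162 (0.00329 to 1.64), with 1 and 4 reads. Hoxb9 and Hoxc11 each had 3 and 0 reads, a ratio of 2.95 with 1 read added and a lower interval bound of 0.268; scaled to mock depth the 3 reads are 1.95, under the 3 that a count of 0 allows, so no fold is given. Hoxa10, which acts in the uterus, had 5 and 2, Hoxa13, a gene of the digits, 4 and 2, Hoxc10 4 and 3, and Hoxa9, active in blood progenitors, 3 and 2. Hoxa11 and Hoxc12 each had 3 and 3, Hoxd11 2 and 2, Hoxd9 2 and 0, and Hoxd13, also a gene of the digits, 1 and 0. Hoxd10 had 1 and 2, a ratio of 0.324 (0.00550 to 6.23). No interval in this class excluded 1.

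The sequences just before 4 starts are shown because these genes bound the range of reads and ratios: Hoxd12 with the most reads, Hoxc4 and Hoxd8 with the highest ratios when 1 read is added, and Hoxb13 with the lowest. Each is the 250 bases before the start, 5′ to 3′ on the gene's strand, which is the plus strand for all 4, read from the NCBIM37 (mm9) assembly; none overlaps an annotated exon, and capitals mark a CCAAT box, a motif of many promoters, on either strand (CCAAT or ATTGG).
Hoxd12, chr2:74512736-74512985: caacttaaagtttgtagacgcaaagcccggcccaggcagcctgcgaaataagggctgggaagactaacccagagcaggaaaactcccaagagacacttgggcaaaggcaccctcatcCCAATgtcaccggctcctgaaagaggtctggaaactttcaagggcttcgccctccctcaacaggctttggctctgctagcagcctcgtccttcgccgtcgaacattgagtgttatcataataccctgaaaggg
Hoxd8, chr2:74542422-74542671: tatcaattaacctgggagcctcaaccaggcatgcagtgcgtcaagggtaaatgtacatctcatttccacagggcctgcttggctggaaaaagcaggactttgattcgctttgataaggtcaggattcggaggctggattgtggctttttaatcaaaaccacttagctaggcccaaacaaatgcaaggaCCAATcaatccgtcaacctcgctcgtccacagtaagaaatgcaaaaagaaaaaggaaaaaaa
Hoxc4, chr15:102849117-102849366: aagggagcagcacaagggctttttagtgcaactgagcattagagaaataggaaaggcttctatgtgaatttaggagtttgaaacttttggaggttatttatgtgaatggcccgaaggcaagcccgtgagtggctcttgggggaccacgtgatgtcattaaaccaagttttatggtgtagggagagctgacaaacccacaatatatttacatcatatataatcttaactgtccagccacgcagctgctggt
Hoxb13, chr11:96055380-96055629: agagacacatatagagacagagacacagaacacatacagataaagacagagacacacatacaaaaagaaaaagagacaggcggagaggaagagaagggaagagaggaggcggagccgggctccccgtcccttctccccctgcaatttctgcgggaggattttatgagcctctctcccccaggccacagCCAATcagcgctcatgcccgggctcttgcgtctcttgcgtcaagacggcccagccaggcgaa

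The 4 sequences hold between 4 and 11 CpG dinucleotides, with 4 in Hoxc4 and 11 in Hoxb13. The CCAAT box begins 62 bases before the start in both Hoxd8 (5 and 0 reads) and Hoxb13 (1 and 4 reads), 133 bases before it in Hoxd12, and is not in this window of Hoxc4. A CCAAT box was found before 24 of the 38 Hox starts (63.2%), and before 35.0% of all coding starts in windows of the same length; the 28 boxes began at a median of 95 bases before the start. TATAAA was found, on either strand, before 6 of 38 (15.8%) against 12.3%, and GCCATNTT, the core of YY1 sites, before 5 of 38 (13.2%) against 3.82%. TGATNNAT, a form of the joint site of Hox and Pbx proteins, was before 5 of 38 (13.2%) against 6.99%. An exact pair of the core of retinoic acid elements, with 5 bases between the copies, was before 0 of 38 against 0.0447%. That spacing is 1 base shorter than in the retinoic acid element named DR5, which was not searched. The motif counts are matches of letters in 250 bases and describe the members, not binding.

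Within 500 bp the Hox starts ranged from 44.0% GC at Hoxb3 to 73.7% at Hoxa4 and Hoxa13, with a median of 55.7% against 54.7% over all coding starts. The observed to expected ratio of CpG dinucleotides had a median of 0.623, against 0.549 over all coding starts, and ran from 0.256 at Hoxd4 to 0.996 at Hoxa5. Little sequence was lost to repeats: between 89.5% (Hoxd3) and 100% of the sequences of 36 bases in a window occur once in the genome.

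By cluster, the starts of Hoxa had 32 reads from LUZP1 against 18 from the mock, or 1.15 (0.628 to 2.18), and those of Hoxb 31 and 22, a ratio of 0.914 (0.513 to 1.66). Those of Hoxc had 35 and 19, a ratio of 1.20 (0.665 to 2.21), and those of Hoxd 31 and 13, a ratio of 1.55 (0.787 to 3.22). None of the 6 pairs of clusters differed beyond counting error in this sum; the pair furthest apart, Hoxb against Hoxd, was at 0.591 (0.230 to 1.49). For Hoxd the interval was above 1 around the starts of all coding transcripts (1.85, 1.09 to 3.25), and for Hoxa with 2000 bp on each side (1.41, 1.005 to 2.01). These values by cluster were not also set against GC content.

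Over whole clusters the interval of the LUZP1 to mock ratio lay above 1 in Hoxc alone of the 4, and the ratio there was below 2-fold. Hoxc (102751534 to 102867274 on chromosome 15) held 337 reads from LUZP1 against 156 from the mock, or 1.40 (1.16 to 1.71). Hoxa (52112350 to 52210874 on chromosome 6) held 242 and 135, a ratio of 1.16 (0.938 to 1.45). Hoxb (96055630 to 96229570 on chromosome 11) held 463 and 317, a ratio of 0.948 (0.820 to 1.10), and Hoxd (74506367 to 74603200 on chromosome 2) held 248 and 163, a ratio of 0.987 (0.807 to 1.21). The GC content of the spans was alike, 49.3% over all 4. Averaged over pieces of each span, the ratio expected from GC content was 1.13 to 1.15. Against the expected ratio Hoxc was at 1.22 (1.01 to 1.48) and Hoxb at 0.825 (0.713 to 0.954), an interval below 1. The 200 kb before Hoxb13, outside the span, were at 0.835 against GC content (0.732 to 0.952). The low value was thus not particular to the Hoxb span. All 4 spans together had 1290 reads against 771, a ratio of 1.09 (0.992 to 1.19), and 0.947 of the value expected from GC content (0.865 to 1.04).

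Hoxc also differed from Hoxb and Hoxd in this measure. The Hoxb ratio was 0.676 of that of Hoxc (0.529 to 0.863), and the Hoxc ratio was 1.42 times that of Hoxd (1.07 to 1.89); the intervals of the other 4 of the 6 pairs included 1. With the expected values from GC content divided out these were 0.676 (0.529 to 0.863) and 1.40 (1.06 to 1.86). The intervals were not adjusted for the 6 pairs. In tiles of 20 kb, all 6 tiles of Hoxc had a ratio above 1, from 1.13 to 1.67, while no single Hoxc tile (0 of 6) had an interval that excluded it. Of 9 tiles in Hoxb 2 were above 1, of 5 in Hoxa 4, and of 5 in Hoxd 3. Tiles with an interval that excluded 1 were the one with Hoxb5 (71 and 29 read starts, 1.59, 1.02 to 2.54), the one with Hoxd1 (52 and 19, 1.78, 1.03 to 3.18) and, below 1, the one with Hoxd11, Hoxd12 and Hoxd13 (46 and 46, 0.649, 0.422 to 0.998).

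Set against the 200 kb on each side, every cluster had an interval that included 1. The ratio of the span was 1.19 times that of the flanks in Hoxa (0.936 to 1.52), 0.900 in Hoxb (0.755 to 1.07), 1.24 in Hoxc (0.998 to 1.55) and 1.02 in Hoxd (0.808 to 1.29), and 1.05 over all 4 (0.945 to 1.16). The flanks of Hoxc were themselves at 1.13 (1.02 to 1.25), with 1071 reads from LUZP1 against 616 from the mock, while those of Hoxa were at 0.977 (0.880 to 1.09), of Hoxb at 1.05 (0.955 to 1.16) and of Hoxd at 0.969 (0.866 to 1.08). The sides of Hoxb differed in direction. The 200 kb before Hoxb13 were at 0.929 (0.815 to 1.06), and the 200 kb beyond Hoxb1 at 1.23 (1.06 to 1.42). Against GC content the side before Hoxb13 was at 0.835 (0.732 to 0.952), and the side beyond Hoxb1 at 1.14 (0.983 to 1.32). The value for Hoxc depended on the flank: it was 1.31 with 100 kb on each side (1.03 to 1.68), 1.36 with 500 kb (1.11 to 1.68), and 1.19 against GC content (0.955 to 1.48).

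**Figure D2:**
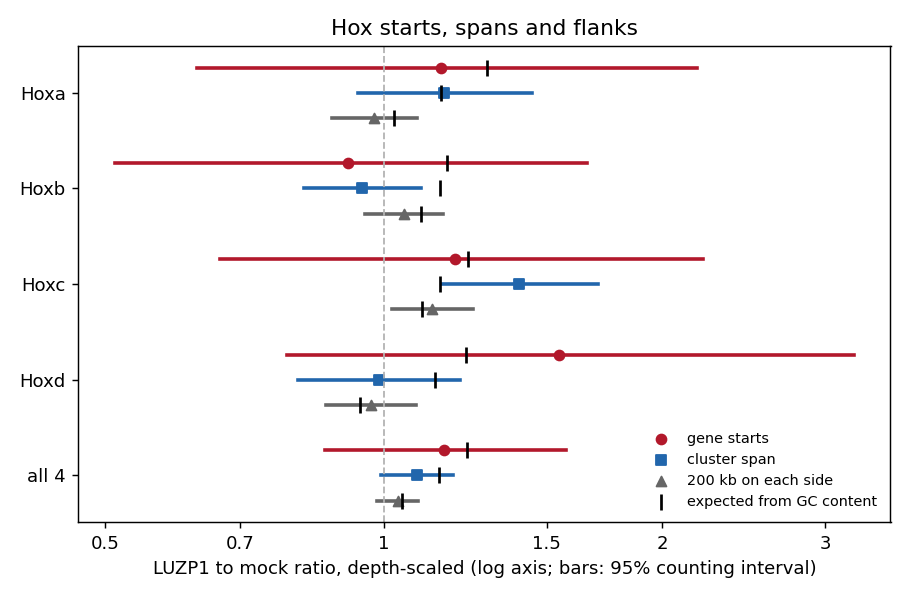
LUZP1 to mock ratio, scaled by total reads, on a log axis, for the gene starts (circles), the cluster span (squares) and 200 kb on each side (triangles) of each cluster and of all 4; bars are 95% counting intervals and black ticks the ratio expected from GC content. The interval of a start sum includes 1 in every cluster, and the Hoxc span, at 1.40, is the span whose interval lies above 1.

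Within the clusters, a difference between gene starts and the rest of the span was not detectable. The ratio at the starts was 1.08 times that of the rest over all 4 clusters (0.793 to 1.49), the rest holding 1166 reads from LUZP1 and 705 from the mock, and between 0.848 (Hoxc, 0.454 to 1.63) and 1.65 (Hoxd, 0.805 to 3.55) by cluster. Around the starts of all coding transcripts it was 1.34 (1.03 to 1.76) over all 4 and 2.13 (1.20 to 3.92) in Hoxd, values not also set against GC content. In each library alone, no difference in density between Hox starts and the rest was detectable. LUZP1 had 2.63 read starts per kb at the starts and 2.66 in the rest, a density ratio of 0.989 (0.798 to 1.21), and the mock had 1.63 and 1.59, a density ratio of 1.03 (0.778 to 1.33).

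The spans were a little denser than their flanks in LUZP1. LUZP1 had 2.66 read starts per kb in the spans and 2.40 in the flanks, a density ratio of 1.11 (1.04 to 1.18), and the mock had 1.59 and 1.50, a density ratio of 1.06 (0.973 to 1.15). In the spans 97.5% of the sequences of 36 bases occur once in the genome, and in the flanks 94.2%; per unique sequence the density ratios were 1.07 (1.003 to 1.14) and 1.02 (0.940 to 1.11). Hoxd was the cluster with the clearest step, at 1.30 (1.12 to 1.50) in LUZP1 and 1.28 (1.07 to 1.53) in the mock, with a GC content of 49.4% in its span and 40.2% in its flanks. The step was present in both libraries. Compared with genome windows of the same GC content, the spans had 1.21 times the expected LUZP1 reads (1.15 to 1.28) and 1.29 times the expected mock reads (1.20 to 1.38), and the flanks 1.33 (1.29 to 1.37) and 1.36 (1.30 to 1.41). Windows genome-wide include repeats, whose share was not measured.

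**Figure D3:**
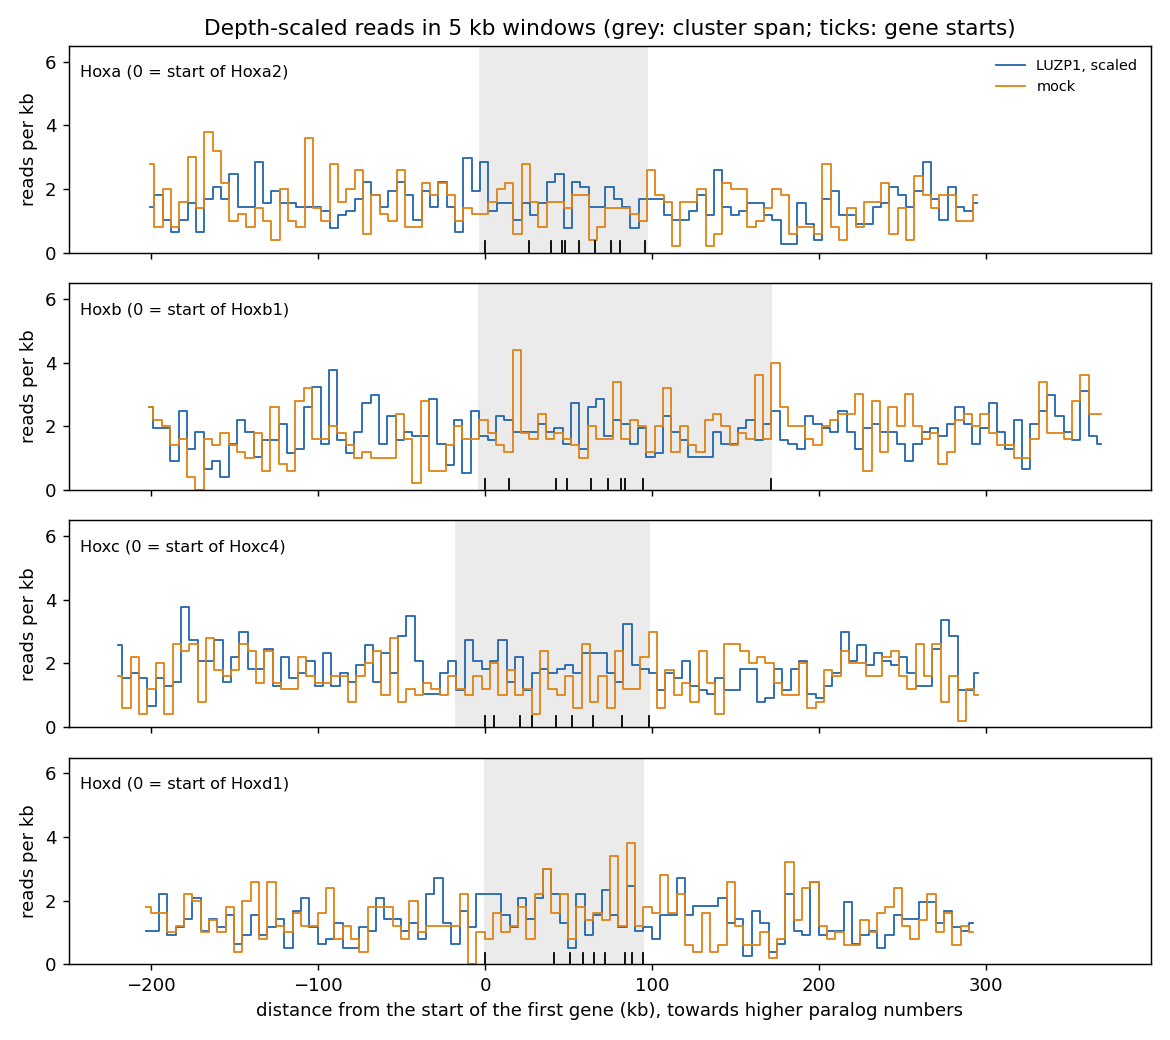
Depth-scaled reads per kb in windows of 5 kb along each cluster and 200 kb on each side, by distance from the start of the lowest-numbered gene, with LUZP1 in blue and the mock in orange; grey marks the span and ticks the gene starts. The lines of the libraries cross repeatedly inside and outside the grey area, and LUZP1 is above the mock in 13 of 20 span windows in Hoxa, 17 of 35 in Hoxb, 16 of 23 in Hoxc and 8 of 19 in Hoxd, and in 49 of 81 windows of the Hoxc flanks.

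A scan of 1000 bp windows looked for signal away from the starts. Its shares are set beside those genome-wide, which were matched for neither read depth nor GC content. LUZP1 had 2.66 read starts per kb in the spans and 1.65 reads per kb genome-wide. Of 476 windows in the spans with a read, 129 were higher in LUZP1 by 2-fold (27.1%), where 24.7% of windows genome-wide were, and 72 were lower (15.1%), where 21.5% were. An interval above 1 was found in 4 of the 476 (0.840%), against 0.256% genome-wide, and one below 1 in 6 (1.26%), against 1.96%. The 4 windows were at Hoxd12 (74512001 to 74513000, 9 LUZP1 and 0 mock midpoints, lower interval bound 1.28), 3998 bp before the start of Hoxb4 (96173001 to 96174000), 5188 bp before that of Hoxc12 (102761001 to 102762000) and 9634 bp downstream of that of Hoxc4 (102859001 to 102860000), the last 3 with 8 and 0 midpoints each and a lower interval bound of 1.11. The midpoints of the 4 mock reads at the Hoxd12 start lay outside these 1000 bp. The window with the most uneven mock signal lay 1430 bp downstream of the Hoxb7 start (96147001 to 96148000), with 0 LUZP1 and 8 mock midpoints and an upper interval bound of 0.380.

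The average over the starts had no peak at the start itself. Within 125 bp of the start the 38 genes together had 44 reads from LUZP1 against 20 from the mock, or 1.43 (0.824 to 2.56). Of 21 positions spaced 500 bp apart from 5000 bp before to 5000 bp after the start, the interval excluded 1 at 1000 bp downstream (69 and 22 reads, 2.04, 1.24 to 3.45) and at 4500 bp upstream (59 and 20 reads, 1.91, 1.14 to 3.36). At the positions 500 bp downstream and 4000 bp upstream, next to these, the ratios were 1.03 (0.633 to 1.70) and 0.860 (0.560 to 1.33). Neighbouring starts lie close together, so a read can enter the average more than once.

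**Figure D4:**
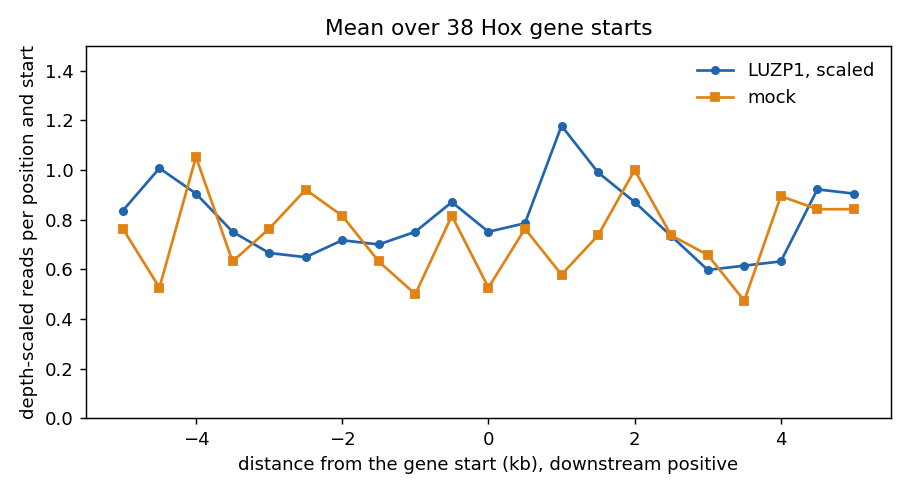
Mean depth-scaled reads per start within 125 bp of positions every 500 bp around the 38 Hox starts, oriented by strand, with LUZP1 as circles and the mock as squares. LUZP1 has its highest value at 1000 bp downstream, 1.18 against 0.579 in the mock, and is at 0.751 against 0.526 at the start.

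For scale, the same measure was taken at the LUZP1 peaks that the authors listed. Of 47 peaks, 0 lay in a Hox span and 0 in the flanks. The spans cover 485 kb and the flanks 1600 kb of 2558510 kb of known genome sequence. In so small a share, 0 of 47 peaks says nothing about the Hox clusters. The nearest peak was 5.79 Mb from Hoxb, and chromosome 6, with Hoxa, had 0. Within 500 bp of the centres of the listed peaks LUZP1 had a median of 13 reads (7 to 116) and the mock a median of 3, and the pooled ratio was 2.52 (2.16 to 2.95), with an interval above 1 at 19 of 47. Those peaks were called on these reads, so their ratio describes the list only. The lowest LUZP1 count at a listed peak, 7, was passed by 1 Hox start, Hoxd12.

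Non-coding genes lie among the Hox genes, and 28 records at 24 positions are annotated inside the spans. Their starts together had 71 reads from LUZP1 against 42 from the mock, or 1.10 (0.739 to 1.65), and 0 of them had an interval that excluded 1. The microRNA genes of the clusters are known to repress Hox messenger RNAs, among other targets. Their main mature forms are shown, from RefSeq (GRCm38.p6), since the series concerns non-coding RNA genes; capitals mark the seed, bases 2 to 8, which pairs with target RNAs.
miR-10a-5p: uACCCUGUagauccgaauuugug
miR-10b-5p: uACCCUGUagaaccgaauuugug
miR-196a-5p: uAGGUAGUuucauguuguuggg
miR-196b-5p: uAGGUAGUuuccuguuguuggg
miR-615-3p: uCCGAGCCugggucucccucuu

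The first pair shares a seed, and so does the second pair, while miR-615-3p has its own. All 6 genes matched by symbol. Within the first family Mir10a, inside the annotated Hoxb4, had 3 reads from LUZP1 against 0 from the mock and Mir10b, inside the annotated Hoxd4, had 6 and 4, a ratio of 0.973 (0.231 to 4.69). Within the second, Mir196a-1 had 1 and 0, Mir196a-2 had 3 and 1, a ratio of 1.95 (0.156 to 102), and Mir196b, inside the annotated Hoxa9, had 1 and 1. Mir615, inside the annotated Hoxc5, had 3 and 4, a ratio of 0.487 (0.0713 to 2.88). Each count of these genes was below the 8 reads needed against 0.

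Genes that act with or on the Hox genes were taken from fixed lists, within 500 bp of the start. The counts by 2-fold are to be read against all coding starts, of which 26.2% were higher and 13.9% lower. The cofactors that bind DNA beside Hox proteins (Pbx, Meis and Pknox, 9 genes) had 33 reads from LUZP1 against 15 from the mock, or 1.43 (0.754 to 2.83), with 4 of 9 higher by 2-fold (44.4%) and 1 lower (11.1%); Pknox1 had 4 and 0 reads and Meis1 had 2 and 5. The Cdx, Gsx, Pdx and Evx homeobox genes (8 genes), relatives of the Hox genes, had 27 and 10, a ratio of 1.75 (0.822 to 4.06), with 4 of 8 higher and 1 lower. Cdx2, which directs trophoblast and gut fate, had 9 and 0 reads, with a lower interval bound of 1.28, and Gsx2 had 2 and 4. Evx1 and Evx2, which lie next to Hoxa13 and Hoxd13, had 2 reads against 3 and 3 against 0, in that order.

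Polycomb genes (22), whose products keep Hox genes silent, had 62 reads against 37, a ratio of 1.09 (0.712 to 1.68), with 6 higher (27.3%) and 4 lower (18.2%), near the 26.2% and 13.9% of all coding starts; Ezh2, the histone methyltransferase, had 3 and 0 and Eed, its partner, 1 and 4. Trithorax and MLL genes (14 of 15 symbols matched), whose products keep Hox genes active, had 50 and 28, a ratio of 1.16 (0.716 to 1.91), with 5 higher (35.7%) and 2 lower (14.3%). Men1, which encodes the MLL partner menin, had 7 and 0 (interval from 0.935), and Setd1a and Kdm6b each had 2 and 5. Other developmental regulators known as Polycomb targets (39 of 40 matched) had 115 and 63, a ratio of 1.18 (0.864 to 1.64), with 10 higher (25.6%) and 5 lower (12.8%). Gata6, an endoderm factor, had 5 and 0, and Pax6, an eye and neural factor, had 2 and 7, a ratio of 0.185 (0.0188 to 0.974), an interval below 1.

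Genes of retinoic acid signalling (17) were the list with an interval above 1. They had 60 reads from LUZP1 against 20 from the mock, or 1.95 (1.16 to 3.41), with a median of 1.80, beside 1.15 over all coding starts. By 2-fold 7 were higher (41.2%, against 26.2% of all coding starts) and 0 lower (against 13.9%), and 0 of the 17 had an interval above 1 alone, against 1.06%. Stra8, a gene of germ cells entering meiosis, had 5 and 0 reads and Rarb, a retinoic acid receptor, 3 and 3, a ratio of 0.649 (0.0869 to 4.84). GC content moves with this list: against windows of the same GC content it was at 1.47 (0.874 to 2.58), and with 250 bp on each side at 1.77 (0.862 to 3.91), intervals that include 1.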

How the data were processed

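The data are mapped reads from 1 LUZP1 and 1 mock ChIP-seq library of E14 cells. Per the labels' design text, the authors aligned reads to mouse mm9 with Eland, allowing 1 mismatch, and called regions with MACS. Their versions are not stated by the labels. The authors deposited each read as 1 line with a count of 1, and 0 lines repeated a position and strand in either file, so copies of a read are absent from these counts. The deposited peak list gives positions alone (other values are absent from it).

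Gene starts came from GENCODE mouse release 1 (Ensembl 65) on NCBIM37, the assembly also called mm9. A start is the most upstream base of a gene's coding-gene records. It need not be the start of a coding transcript, and is not in Hoxa6 and Hoxd11. Each read was lengthened to 200 bp along its strand and assigned to every region it touched, except that reads per kb count 5′ ends and windows of 1000 bp count the midpoints of extended reads. LUZP1 counts were multiplied by 0.649, total mock reads over total LUZP1 reads. Ratios carry the exact conditional binomial (Clopper-Pearson) 95% interval, and ratios of ratios the exact conditional interval of the table of 4 counts. With 1 library per group there is no test; the intervals cover counting error only, are too narrow where a pair of reads comes from 1 fragment, and were not adjusted for the number of regions. A start or window was called higher or lower when the scaled counts, with 1 read added to each, differed by at least 2-fold, and separately when its interval excluded 1. Expected ratios from GC content came from genome windows of 1000 bp in steps of 2 percent. A region was cut into pieces of up to 1001 bp, and their expected LUZP1 shares were averaged with the reads of both libraries as weights. A sequence of 36 bases was unique if no other exact copy lay on either strand of the assembly. Calculations used Python 3.11.15, NumPy 2.4.6 and SciPy 1.17.1, and the counting and interval steps were tested on simulated data.

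Named with ratio and interval are the members with an interval that excludes 1 (there were 0), the 5 highest and 5 lowest ratios with 1 read added, and the members with the most reads; from the other lists, genes whose interval excludes 1 and otherwise the extremes; Evx1 and Evx2 are given as neighbours of the clusters. Of 40 other developmental regulators 39 matched the annotation, of 15 Trithorax and MLL symbols 14, and of the remaining lists all. Members and lists were chosen with earlier results of these data known. Motifs, pairs of clusters, tiles of 20 kb and the profile around starts were added after the files were seen. Alternatives covered window width, transcript starts, extension, joined read pairs, scaling, GC content, flank size and fold; the closing section gives their effect.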

Additional observations from a re-analysis of the deposited data

How the results depend on the processing

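For 38 results, 291 values were computed under alternatives. Of these, 226 ratios stayed within the original interval with the same call and 28 counts within 1.5 times; 36 of the 226 crossed 1, all with intervals that include 1, among them the ratio over all starts with GC content divided out (0.945). No ratio whose interval excluded 1 changed direction. The ratio over all starts had an interval above 1 with 1000 bp on each side (1.32), with 2000 bp (1.19) and around all coding transcripts (1.39), though not when GC content was divided out as well. Hoxa with 2000 bp (1.41) also had an interval above 1, and so did Hoxd around all coding transcripts (1.85). The starts of all coding transcripts against the rest of the span did too, in Hoxd (2.13) and over all 4 clusters (1.34). For these values GC content was not divided out as well. With GC content divided out the interval of the Hoxb span was below 1 (0.825), and the 4 spans together moved to 0.947. With flanks of 500 kb the Hoxb flanks (1.10) and all flanks (1.03) were above 1, and Hoxc exceeded its flanks with 100 kb (1.31) and 500 kb (1.36). The Hoxc flanks no longer excluded 1 with pairs joined (1.10), GC content (1.03), 100 kb (1.07) or 500 kb (1.03), nor did the retinoic acid list with 250 bp (1.77) or GC content (1.47). Starts higher by 2-fold numbered 8, and 5 with 2000 bp, 5 with GC content, 13 with 0.5 added and 2 by 3-fold. Starts lower numbered 2, and 9 with 250 bp, 8 by read starts, 4 with extension to 100 bp, 1 with pairs joined, 7 with GC content, 4 with 0.5 added and 1 by 3-fold. An interval above 1 was found at 1 start (Hoxd8) around all coding transcripts. Windows in the spans that were higher numbered 195 at 500 bp (24.4%, genome 22.2%), 55 at 2000 bp (22.4%, genome 22.3%) and 31 by 3-fold (6.51%, genome 6.68%), and those lower 168 (21.1%, genome 25.6%), 24 (9.76%, genome 18.0%) and 30 (6.30%, genome 10.8%). The causes were not tested. No paired analysis was possible because each group has 1 library. Depth limits single starts, where 8 reads against 0 were needed.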
